A study of Mus musculus with 20 samples.

Results

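Untreated wild-type (WT) mice were compared at the 2 time points of the study, which the labels call 25 weeks and 9 weeks. The members are the 4 untreated WT cerebella of 25 weeks and the 3 untreated WT cerebella of 9 weeks, chosen by their sample titles, 7 of the 20 libraries of the series. All 7 mice are labelled as WT, strain C57BL/6J, without a treatment. The study's methods state that untreated mice received saline into the retro-orbital vein under anaesthesia at a few weeks of age. The labels leave the first day of their count of weeks unstated. The text of the study counts from the injection and places the early mice 9 weeks after it. It gives the late mice a somewhat smaller number of weeks than their labels do. Counted in that way the early mice were older than 9 weeks, and the age of the mice is not given with certainty. The 9-week mice belong to an early experiment with WT mice only, and the 25-week mice to a late experiment with mice of the spinocerebellar ataxia type 7 (SCA7) knock-in line. Time point and experiment therefore coincide: age, the day of dissection, RNA extraction, library preparation and sequencing cannot be told apart in any value below. Each untreated group served as the control of its own experiment.

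The mouse cerebellum keeps changing after its neurons are born. Granule cells, the small excitatory neurons that outnumber every other cell type, and Purkinje cells (PCs), the output neurons of the cortex, are in place in the young mouse, while oligodendrocytes go on wrapping axons in myelin and blood vessels lay down their basement membrane well into adult life. Myelin needs large amounts of cholesterol, which the brain makes itself because plasma cholesterol does not cross the blood-brain barrier. Microglia, the macrophages of the brain, and the genes that answer interferon are known to become more active with age, and clock genes such as Per2 follow the hour of the day.

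Each library holds polyadenylated RNA of the cerebellum of 1 mouse. Reads counted on genes ranged from 47455917 to 49212593 at 9 weeks and from 39036803 to 54570503 at 25 weeks, and 4.30% to 4.81% of them fell on the 10 most abundant genes. Levels are given as CPM, which are counts scaled to a common library size, after TMM normalisation, which compares 1 gene between mice and not different genes with each other. The cerebellum was recognisable in every library. The PC gene Calb1, which codes for the calcium buffer calbindin, stood at 1187, 1036 and 1148 CPM at 9 weeks and at 1071, 1218, 1113 and 1130 CPM at 25 weeks. Gabra6, the GABA receptor subunit of granule cells, stood between 670 and 870 CPM. Marker genes of the hindbrain and spinal cord outside the cerebellum were low (here CPM before TMM). Hoxb8 stayed at 0.0256 CPM or less, Chat, of motor neurons, at 0.0840 CPM or less and Hoxb5 at 0.342 CPM or less. Tph2 stood at 0.435 to 0.831 CPM. On the same scale Xist stayed at or below 0.126 CPM and the Y-linked Uty at or above 16.9 CPM in all 7 libraries, the pattern of males.

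One library stood apart from the others. The first principal component, with 40.9% of the variance, separated the time points, and the second, with 24.6%, separated replicate 1 of 25 weeks from the other 6. Nrgn led this second axis and Tcf7l2 was among the 12 genes with the largest loadings. Nrgn, which codes for the postsynaptic protein neurogranin, stood at 3.31, 51.8 and 7.01 CPM at 9 weeks and at 120, 5.68, 4.94 and 3.62 CPM at 25 weeks. Tcf7l2, a transcription factor of the thalamus, stood at 5.70, 22.96 and 6.52 CPM at 9 weeks and at 65.9, 6.18, 6.40 and 6.39 CPM at 25 weeks. Replicate 1 of 25 weeks was the highest in both genes and replicate 2 of 9 weeks the next. The list of brainstem, midbrain and cerebellar nuclei summed to 542 CPM in replicate 1 of 25 weeks and to 365 to 437 CPM in the other 6 libraries, and the part of neighbouring tissue in other results was not tested. None of the 12 genes was called.

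**Figure D1:**
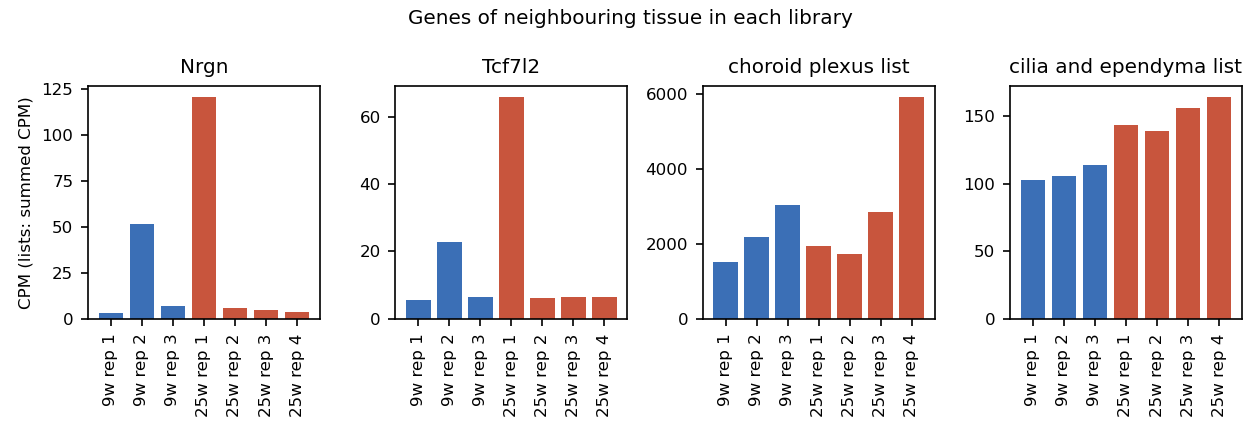
Levels in CPM, 1 bar per library, of Nrgn and Tcf7l2 and of the summed choroid plexus and cilia lists, with 9 weeks in blue and 25 weeks in red. Nrgn reached 120 CPM in replicate 1 of 25 weeks against at most 5.68 CPM in the other 25-week libraries, the choroid plexus sum was highest in replicate 4 of 25 weeks, and the cilia sum of every 25-week library lay above those of 9 weeks.

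Of the protein-coding genes, 14875 had enough reads to be tested. A gene was called when the adjusted p of edgeR's quasi-likelihood test (Benjamini-Hochberg over all genes tested) was under 0.05 and its fold change was above 1.3 in either direction. At these limits 764 genes were called, 5.14% of those tested, with 480 higher at 25 weeks (3.23%) and 284 lower (1.91%). The 4 late mice did not overlap with the 3 early mice in 734 of the called genes, against 5030, or 33.8%, of all genes tested. Most differences were small: the median of the log2 fold change over all genes was 0.0059 and that of its absolute value 0.12, and 74 of the called genes were more than 2-fold higher and 36 more than 2-fold lower at 25 weeks. By the adjusted p alone 3419 genes passed. An exact permutation test of 4 against 3 mice cannot give a p below 0.0571, so single genes are given with the p of the fit across all genes. In whole cerebellum, fewer cells of a type and less RNA per cell cannot be told apart.

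Several myelin genes were lower at 25 weeks. Of 28 genes of mature oligodendrocytes and myelin, 9 were called lower and 1 higher, and their median log2 fold change was −0.21, against 0.0059 over all genes. Cldn11, the tight junction protein that seals the layers of the myelin sheath, lies on chromosome 3 from 31149920 to 31164324 (build GRCm38). It stood at 174, 177 and 175 CPM at 9 weeks and at 117, 89.0, 104 and 99.9 CPM at 25 weeks. The 9-week mice differed little from each other and every 25-week mouse lay well below them, with means of 175 ± 1.47 CPM (SD, n = 3) and 103 ± 11.5 CPM (SD, n = 4). On the log2 scale Cldn11 fell by 0.77, with a standard error (SE) of 0.072 and an adjusted p of 0.000183. Mog, a protein of the outermost myelin surface, stood at 70.2, 76.9 and 87.6 CPM and then at 53.0, 50.1, 53.8 and 45.1 CPM, without overlap, and Mal, a lipid raft protein of myelin, fell by 0.65 (adjusted p = 0.000484).

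Fa2h, Mag, Mobp, Opalin and Tspan2 were among the other myelin genes called lower. Mbp, the myelin basic protein, had a log2 fold change of −0.34 at an adjusted p of 0.00677 and stayed inside the fold limit, with 3957 ± 54.2 CPM (SD, n = 3) at 9 weeks and 3123 ± 302 CPM (SD, n = 4) at 25 weeks. Il33, an alarmin cytokine that oligodendrocytes keep in their nuclei, was the member called higher, with 28.9 ± 0.272 CPM (SD, n = 3) against 41.6 ± 4.85 CPM (SD, n = 4). The summed level of the 28 genes was 11188 to 11690 CPM at 9 weeks and 8729 to 10022 CPM at 25 weeks. Of 23 genes of oligodendrocyte precursors and newly formed oligodendrocytes, 3 were called lower and 0 higher. Gpr17, a receptor that marks the newly formed cells, stood at 32.0, 36.0 and 26.7 CPM at 9 weeks and at 22.04, 16.6, 21.5 and 22.05 CPM at 25 weeks. Tmem163, a zinc transporter, was lower by a log2 fold change of −0.53, and Ccnd1, the cyclin D1 of the cell cycle's entry, by −0.50.

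Some cholesterol synthesis genes were lower as well. All 24 genes tested had a negative log2 fold change, 7 were called lower and 0 higher, and the median was −0.27. Hmgcs1, the synthase that makes HMG-CoA for the pathway, stood at 139, 139 and 159 CPM at 9 weeks and at 115, 98.7, 107 and 104 CPM at 25 weeks. It fell by 0.45 (SE 0.061, adjusted p = 0.00112), and the groups did not overlap. Dhcr7, which makes the last step to cholesterol, stood at 40.7 ± 0.486 CPM (SD, n = 3) and 29.8 ± 0.905 CPM (SD, n = 4), a spread between mice far smaller than the difference (adjusted p = 0.00018). Sqle, Msmo1, Mvd and Acat2 were also called, with log2 fold changes between −0.52 and −0.38.

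The promoter of Hmgcs1 is shown because it holds, in this list, the letters of a sterol regulatory element, TCACCCCAC, which the transcription factor SREBP is known to bind when sterols are low. RefSeq promoters (build GRCm38.p6, from 250 bases before to 50 bases after a gene's start) were searched on both strands, and the table has 17 of the 25 cholesterol genes. The letters were present in 1 of these 17 and in 0.614% of all 27025 genes with a promoter. Below, 15 bases are shown on each side of the match on chr13:119690199-119690237, plus strand, with the match in capitals.
Hmgcs1: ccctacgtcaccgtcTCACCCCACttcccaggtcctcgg

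**Figure D2:**
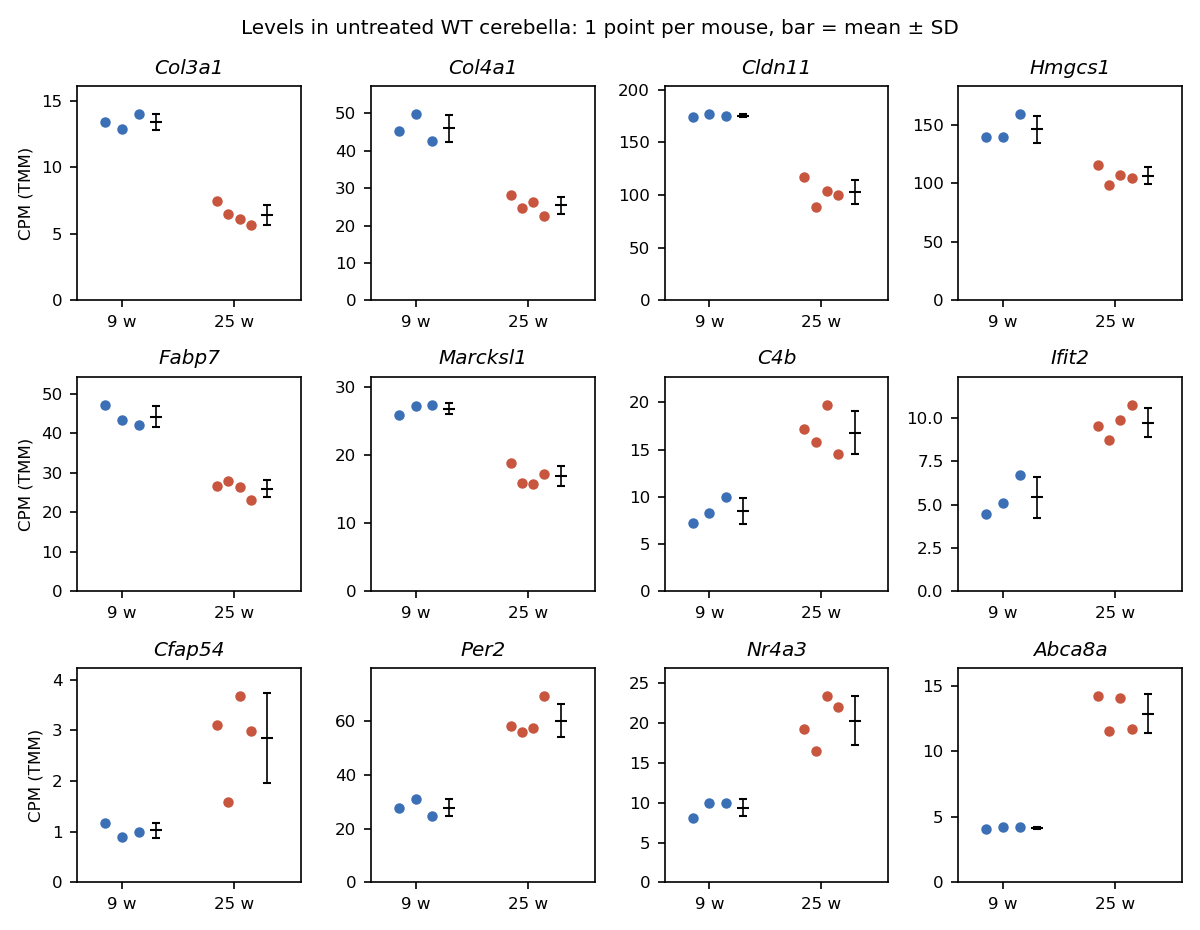
Levels of 12 genes in CPM on axes that start at 0, with 1 point per mouse, the 3 mice of 9 weeks in blue, the 4 mice of 25 weeks in red, and the mean ± SD beside them. The 12 genes were picked from the called genes, of which 734 of 764 do not overlap between the groups, against 33.8% of all genes tested. None of the 12 overlaps, which follows from this choice. The spread of Cldn11 at 9 weeks (SD 1.47 CPM) is small beside its difference between 175 and 103 CPM.

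Several collagens of vessels and meninges were lower at 25 weeks. Of 31 genes of collagens and extracellular matrix, 7 were called lower and 0 higher, all 7 of them collagen chains, with a median of −0.097 over the list. Col3a1, a fibrillar collagen of vessel walls and meninges on chromosome 1 from 45311538 to 45349706, stood at 13.4, 12.9 and 14.0 CPM at 9 weeks and at 7.47, 6.46, 6.10 and 5.68 CPM at 25 weeks. It was 2.08-fold higher at 9 weeks (log2 fold change −1.06, SE 0.096, adjusted p = 0.000164). Col4a1, the main chain of the vessel basement membrane on chromosome 8 from 11198423 to 11312826, stood at 45.4, 49.8 and 42.6 CPM and then at 28.1, 24.7, 26.3 and 22.6 CPM. Its partner chain Col4a2, which shares a promoter region with it, fell by 0.71 (adjusted p = 0.00378). Col1a1, the bone and skin collagen that meningeal fibroblasts also make, stood at 31.3, 33.3 and 36.2 CPM and then at 16.3, 16.7, 26.8 and 16.4 CPM, so that replicate 3 of 25 weeks lay between the other late mice and the early ones. Col5a2, Col15a1 and Col6a2 had log2 fold changes from −0.58 to −0.39. Over all 44 collagen chains tested, a family looked at after its values were seen, 8 were called lower and 2 higher, with a median of 0.058. The higher ones were Col6a5, with 0.119 ± 0.0853 CPM (SD, n = 3) at 9 weeks and 0.841 ± 0.698 CPM (SD, n = 4) at 25 weeks and an overlap of the groups, and Col19a1, with a log2 fold change of 0.51.

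Lists of the cells known to make these chains held few calls. Of 19 meningeal fibroblast genes 0 were called, with a median of 0.036 and a summed level of 2533 to 2791 CPM at 9 weeks and 2209 to 2668 CPM at 25 weeks. Of 26 genes of endothelium and mural cells, 2 were called lower, with a median of −0.15. These were Mfsd2a, the lipid transporter of the blood-brain barrier (22.1 ± 3.09 CPM, SD, n = 3, against 15.1 ± 1.65 CPM, SD, n = 4), and Acta2, the smooth muscle actin (log2 fold change −0.55, adjusted p = 0.0232). Acta2 lost the call without replicate 1 or replicate 3 of 9 weeks.

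Of 25 cell cycle genes, 4 were called lower and 2 higher, with a median of −0.15. Their summed level overlapped, with 87.8 to 93.4 CPM at 9 weeks and 85.1 to 90.6 CPM at 25 weeks. Without replicate 2 or replicate 3 of 9 weeks 2 were called lower, and without replicate 1 or 2 of 9 weeks or replicate 3 of 25 weeks 0 were called higher. Mki67, the proliferation marker Ki-67, stood at 0.591, 0.985 and 0.654 CPM at 9 weeks and at 0.370, 0.365, 0.389 and 0.329 CPM at 25 weeks, a log2 fold change of −1.02 with an SE of 0.26 and an adjusted p of 0.0197. Nusap1 and Plk1, of the mitotic spindle, and Top2a, the topoisomerase of dividing cells, were lower by 1.07, 0.86 and 0.91 in size of the log2 fold change, while Tyms and Mcm6, of DNA synthesis, were higher. Of 24 genes of immature neurons 2 were called lower. Marcksl1, an actin regulator of growing neurites, stood at 25.9, 27.2 and 27.3 CPM and then at 18.9, 15.95, 15.7 and 17.2 CPM. Gap43, of axon growth cones, fell by 0.39, with means of 193 ± 13.4 CPM (SD, n = 3) at 9 weeks and 147 ± 5.51 CPM (SD, n = 4) at 25 weeks.

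Most genes of cerebellar neurons did not pass the limits. In the PC list 1 of 42 genes was called, and the median was 0.014. The called gene was Th, tyrosine hydroxylase of catecholamine synthesis, which PCs also carry, with 10.9, 7.60 and 12.6 CPM at 9 weeks and 16.8, 18.2, 12.2 and 19.5 CPM at 25 weeks. Its groups overlapped, and it lost the call without replicate 1 or 2 of 9 weeks or replicate 2 or 4 of 25 weeks. Calb1 had a log2 fold change of 0.012, with an adjusted p of 0.903, and Pcp2, a PC protein at the synaptic G protein pathway, of −0.13 (adjusted p = 0.103). Itpr1, the calcium release channel of PCs, stood at 3596 ± 78.0 CPM (SD, n = 3) and 4404 ± 201 CPM (SD, n = 4), which is a log2 fold change of 0.29 at an adjusted p of 0.00228 that stayed inside the fold limit without overlap of the groups.

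In granule cells 3 of 24 genes were called lower and 0 higher, with a median of −0.12. Cbln1, the synaptic organiser that granule cell axons release onto PCs, stood at 1337, 1258 and 1202 CPM at 9 weeks and at 790, 962, 931 and 903 CPM at 25 weeks. It fell by 0.50 (SE 0.066, adjusted p = 0.00104). Slc17a7, the vesicular glutamate transporter of their synapses, fell by 0.43 and Nfia, a transcription factor of granule cell maturation, by 0.39. Without replicate 1 of 25 weeks, the lowest of the late mice in all 3 genes, 1 gene of the list was called, and Slc17a7 and Nfia were not; Nfia also lost the call without replicate 1 of 9 weeks.

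In other neurons, 1 of 26 genes of interneurons, Golgi cells and unipolar brush cells was called. Eomes, the transcription factor of unipolar brush cells, stood at 20.4, 17.5 and 16.03 CPM at 9 weeks and at 27.2, 24.6, 30.7 and 38.7 CPM at 25 weeks. Ntf3, the neurotrophin-3 that granule cells make, stood at 10.96, 10.04 and 9.12 CPM and then at 3.81, 4.67, 3.63 and 4.92 CPM, a log2 fold change of −1.24 at an adjusted p of 0.000235. Atxn7, the gene that carries the CAG repeat in SCA7 and is intact in these mice, had 39.1 ± 2.91 CPM (SD, n = 3) against 47.7 ± 1.85 CPM (SD, n = 4). Its log2 fold change of 0.28 at an adjusted p of 0.00596 stayed inside the fold limit. Of the 9 genes of polyglutamine diseases 1 was called higher and 0 lower, with a median of 0.043, and without replicate 1 of 25 weeks 0 were called.

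Astrocyte genes changed little as a list. Of 23 genes of Bergmann glia and astrocytes, 1 was called lower and 1 higher, with a median of −0.056. Fabp7, the brain lipid-binding protein of radial and Bergmann glia, stood at 47.2, 43.4 and 42.1 CPM at 9 weeks and at 26.6, 28.0, 26.4 and 23.1 CPM at 25 weeks, a decrease by 0.76 (SE 0.067, adjusted p = 0.00015). Etnppl, a lipid enzyme of astrocytes, stood at 60.5, 66.6 and 108 CPM and then at 122, 115, 99.96 and 113 CPM, with an overlap through replicate 3 of 9 weeks, and kept the call of the 7 leave-outs only in the one without that mouse. Gfap, the filament protein of reactive astrocytes, had 209 ± 10.8 CPM (SD, n = 3) and 195 ± 14.6 CPM (SD, n = 4), which is a log2 fold change of −0.0985 with an adjusted p of 0.252. Apoe, the lipid carrier, had −0.0182 with an adjusted p of 0.83.

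**Figure D3:**
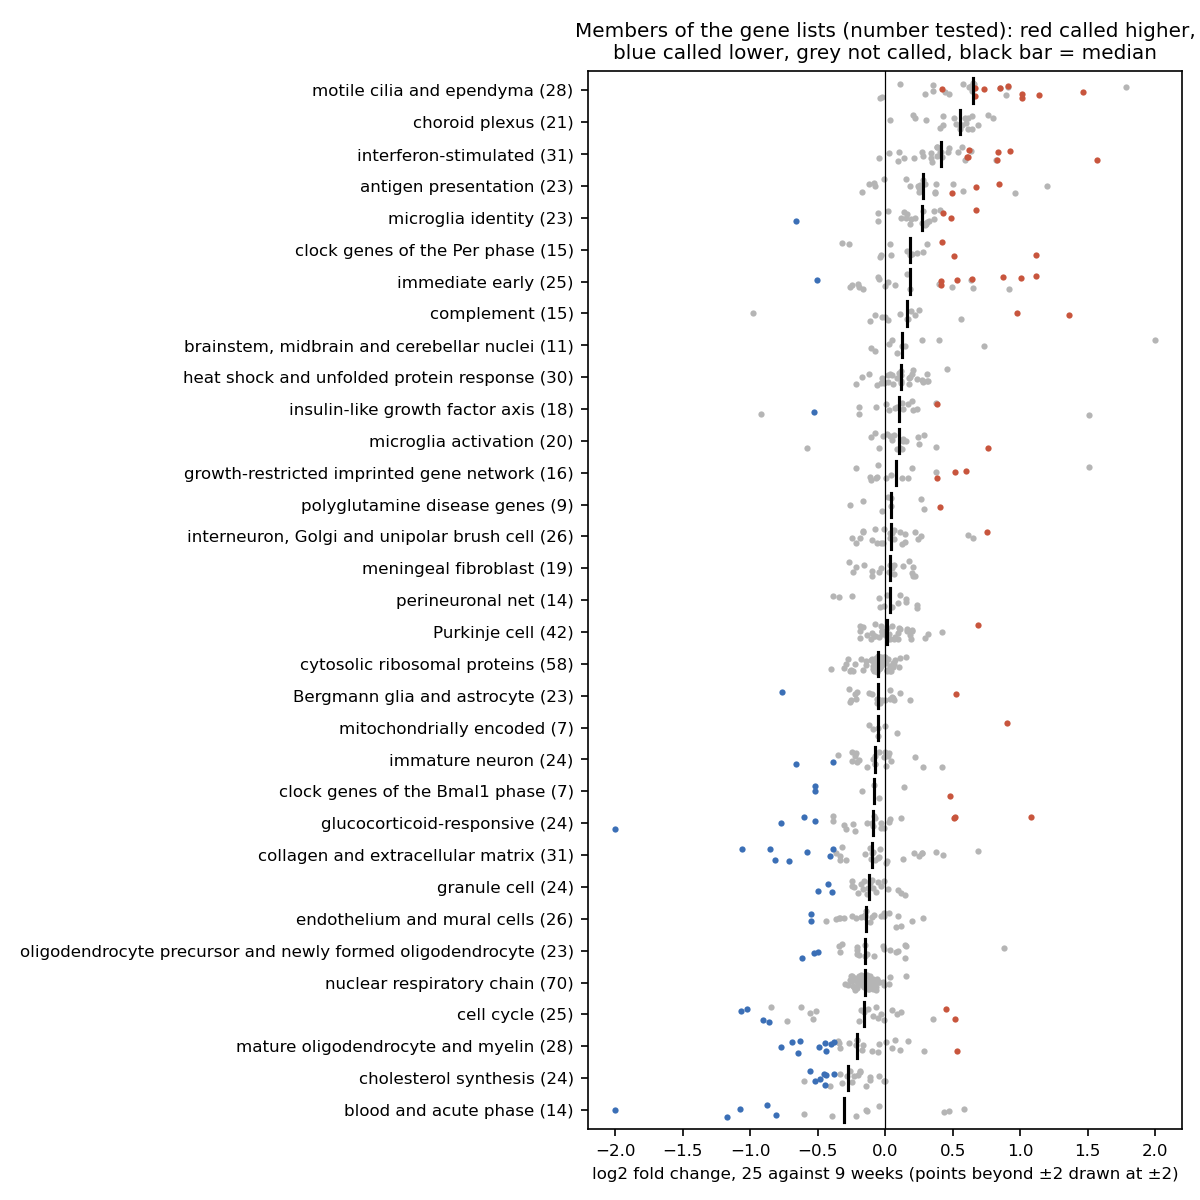
The log2 fold change of 25 against 9 weeks for the members of 33 gene lists with at least 7 genes tested, 1 point per gene, ordered by the list's median (black bar). All called genes stand to the right in the cilia (10) and interferon (7) lists and to the left in the cholesterol (7) and collagen (7) lists, myelin holds 9 to the left and 1 to the right, and 0 of 21 choroid plexus genes were called although their median was 0.56.

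A small number of immune genes passed the limits. Of 23 microglia identity genes, 20 had a positive log2 fold change, 3 were called higher and 1 lower, with a median of 0.28 and a summed level of 249 to 266 CPM at 9 weeks and 286 to 329 CPM at 25 weeks. Ctss, the lysosomal protease cathepsin S, stood at 23.9, 26.3 and 30.7 CPM at 9 weeks and at 44.0, 44.8, 42.4 and 40.5 CPM at 25 weeks. It rose by 0.67 (SE 0.077, adjusted p = 0.000524). Gpr34 and Csf3r, receptors of microglia and myeloid cells, were called at adjusted p = 0.0344 and 0.0492, and Fcrls, an Fc receptor-like gene of microglia, was called lower. Gpr34 and Csf3r each lost the call when any of 5 of the 7 mice was left out, replicate 1 of 25 weeks among them, and Fcrls without replicate 2 or 3 of 9 weeks. Without replicate 1 or replicate 2 of 25 weeks 1 gene of the list was called higher. The sensor P2ry12 had a log2 fold change of 0.29, Tmem119 of 0.36 and the fractalkine receptor Cx3cr1 of 0.16, none of them past the fold limit. In the list of microglia activation, whose sums overlapped with 1481 to 1669 CPM at 9 weeks and 1505 to 1610 CPM at 25 weeks, 1 of 20 genes was called, Gpnmb, a glycoprotein of lysosome-rich macrophages, with 2.22 ± 0.191 CPM (SD, n = 3) and 3.77 ± 0.167 CPM (SD, n = 4).

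Among 15 complement genes 2 were called higher, and their sums overlapped, with 783 to 846 CPM at 9 weeks and 779 to 883 CPM at 25 weeks. C4b, a complement component that oligodendrocytes and astrocytes raise with age, stood at 7.24, 8.33 and 9.998 CPM at 9 weeks and at 17.2, 15.8, 19.7 and 14.5 CPM at 25 weeks, a 1.97-fold rise (log2 fold change 0.98, SE 0.13, adjusted p = 0.00102). C3, the component on which the complement pathways meet, stood at 0.401, 0.814 and 0.818 CPM and then at 1.41, 1.62, 2.77 and 1.22 CPM (adjusted p = 0.0187), and lost the call without replicate 1 of 9 weeks. In the list of antigen presentation 3 of 23 genes were called, Ctss, the class II gene H2-Eb1 and Nlrc5, the activator of class I genes. Without replicate 1 of 25 weeks there were 7 and without replicate 1 of 9 weeks or replicate 3 of 25 weeks there was 1. H2-Eb1 lost the call in 5 and Nlrc5 in 6 of the 7 leave-outs. The 4 genes of T and B cells with enough reads summed to 0.823 to 1.02 CPM at 9 weeks and 0.754 to 1.303 CPM at 25 weeks, and 0 were called.

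Several interferon-stimulated genes were higher at 25 weeks. Of 31 genes tested 30 had a positive log2 fold change, 7 were called higher and 0 lower, and the median was 0.41. Ifit2, an RNA-binding antiviral protein, stood at 4.45, 5.10 and 6.73 CPM at 9 weeks and at 9.51, 8.73, 9.87 and 10.7 CPM at 25 weeks (log2 fold change 0.84, SE 0.14, adjusted p = 0.00269). Ifih1, the cytosolic sensor of double-stranded RNA also called MDA5, rose by 0.61 and Trim30a, of the antiviral TRIM family, by 0.62. Mx1, a dynamin-like antiviral protein, stood below 1 CPM in every library, with 0.127, 0.150 and 0.225 CPM and then 0.296, 0.391, 0.640 and 0.710 CPM. Parp14, Ifit3 and Ifit3b were the other calls.

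Within the late group the interferon genes varied from mouse to mouse. The list summed to 275, 306, 330 and 349 CPM in replicates 1 to 4 of 25 weeks and to 246, 269 and 295 CPM at 9 weeks, so that the lowest late mouse lay inside the early range. Ifit3 went from 7.77 CPM in replicate 1 to 17.8 CPM in replicate 4 of 25 weeks, and overlapped with the 8.53 CPM of replicate 3 of 9 weeks. Without replicate 1 of 25 weeks 15 genes of the list were called, without replicate 1 of 9 weeks 2, and without any other single mouse 4 to 10. Each of these calls was higher at 25 weeks. The 21 genes whose symbol starts with Ifi, a set chosen after its values were seen, held 8 called higher and 0 lower. Of these calls Ifih1, Ifit2, Ifit3 and Ifit3b are also calls of the list above. Ifi203, of the DNA sensors of the Ifi200 family, had a log2 fold change of 1.05. Ifi204, Ifi208 and Ifi213 stood low, with means of 0.687, 0.248 and 0.286 CPM at 25 weeks.

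Promoters of many genes of the interferon list, called or not, hold letters of the interferon-stimulated response element, GAAANNGAAA. The complex of STAT and IRF proteins is known to bind this element. Of the 32 listed genes 22 have a promoter in the RefSeq table, and 15 of these 22 hold the letters on either strand, against 3.99% of all genes. Of the 7 called genes 5 have a promoter there and 4 of these hold them. The windows of Ifit3 and Ifit3b are shown because they are the same bases in both genes, which lie side by side on chromosome 19. Such near-identical copies can share short reads, so their separate counts are uncertain. The window of Ctss, which is no member of the interferon list, is shown beside them. Capitals mark the match, which reads on the minus strand in the Ifit windows.
Ifit3, chr19:34583358-34583397: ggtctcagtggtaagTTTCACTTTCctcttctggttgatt
Ifit3b, chr19:34607754-34607793: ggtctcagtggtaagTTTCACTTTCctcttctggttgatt
Ctss, chr3:95526750-95526789: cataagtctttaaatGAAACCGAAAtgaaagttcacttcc

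Genes of motile cilia had the highest median of all lists. Of 28 genes of motile cilia and the ependyma, the ciliated lining of the ventricles, 10 were called higher and 0 lower, and the median was 0.65. Their summed level was 103 to 114 CPM at 9 weeks and 139 to 164.4 CPM at 25 weeks. Cfap54, a protein of the central pair of the cilium, stood at 1.18, 0.899 and 1.00 CPM at 9 weeks and at 3.11, 1.59, 3.68 and 2.99 CPM at 25 weeks, a log2 fold change of 1.47 with an SE of 0.27 and an adjusted p of 0.0045. Dnah11, an outer arm dynein, was the most abundant of them, with 21.0, 22.3 and 19.1 CPM and then 33.1, 33.5, 32.2 and 33.0 CPM. Dnah9, another outer arm dynein, and Rsph4a, of the radial spoke head, were both 2.02-fold higher. Foxj1, the master regulator of motile cilia, overlapped between the groups, with 12.4, 11.7 and 16.99 CPM and then 14.9, 10.9, 16.4 and 17.1 CPM. The count of calls in the list was 15 without replicate 2 of 25 weeks and 6 without replicate 1 of 9 weeks.

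The choroid plexus, which hangs in the ventricle below the cerebellum, was caught to a different extent in each mouse. Its 21 genes summed to 1527, 2183 and 3033 CPM at 9 weeks and to 1937, 1742, 2862 and 5920 CPM at 25 weeks, and 0 were called although all 21 had a positive log2 fold change. Replicate 4 of 25 weeks held the most. The part of ventricle tissue in the ciliary calls was not tested. Of 14 blood and acute phase genes 5 were called lower, among them Hba-a1, Hbb-bs and Hbb-bt of haemoglobin, whose copies share reads. The count was 2 without any 1 of replicates 2 and 3 of 9 weeks and replicates 1 and 4 of 25 weeks, and also with all 20 libraries in the fit, and Hba-a1 and Hbb-bt each lost the call in 5 of the 7 leave-outs. They stood low, with Hbb-bs at 2.53, 4.75 and 3.43 CPM and then at 1.24, 1.62, 2.79 and 2.18 CPM.

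Some clock genes differed between the time points. Of 15 genes that peak with the Per genes 3 were called higher and 0 lower. Per2, a repressor of the circadian clock on chromosome 1 from 91415982 to 91459324, stood at 27.7, 30.9 and 24.8 CPM at 9 weeks and at 58.1, 55.8, 57.4 and 69.3 CPM at 25 weeks. It was 2.17-fold higher (log2 fold change 1.11, SE 0.089, adjusted p = 0.000126), and the gap between the groups was wider than either group's range. Per1, its paralogue, had 83.8 ± 12.7 CPM (SD, n = 3) and 120 ± 13.9 CPM (SD, n = 4), and Hlf, a clock output factor, rose by 0.42. Of 7 genes of the opposite phase 1 was called higher and 2 lower. The lower ones were Npas2, the partner of Bmal1, and Cdkn1a, a cell cycle inhibitor, and each fell by 0.52. Cdkn1a lost the call without replicate 1 or 2 of 9 weeks. The hour of dissection is not in the labels and its part was not tested. The E-box CACGTG, to which Clock and Bmal1 bind, was found in 5 of 13 promoters of the Per phase list and in 8.09% of all genes, and that of Per1 is shown on chr11:69098768-69098803, plus strand, with the box in capitals.
Per1: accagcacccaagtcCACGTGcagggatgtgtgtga

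Some immediate early genes, which neurons switch on within minutes of activity, were higher at 25 weeks. Of 25 genes 7 were called higher and 1 lower, and the median was 0.18. Their summed level overlapped, with 394 to 489 CPM at 9 weeks and 444 to 515 CPM at 25 weeks. Nr4a3, an orphan nuclear receptor, stood at 8.13, 9.96 and 9.998 CPM and then at 19.3, 16.4, 23.4 and 22.05 CPM, a log2 fold change of 1.12 with an SE of 0.12 and an adjusted p of 0.000484. Npas4, a factor that answers calcium entry alone, was 2.01-fold higher, and Fos, the best known of the group, stood at 18.1, 13.4 and 9.51 CPM and then at 30.3, 20.9, 18.1 and 30.7 CPM. Nr4a1, Nr4a2, Homer1 and Klf4 were also higher, and Jun, the partner of Fos, fell by 0.50. The calls numbered 3 to 9 higher when 1 mouse was left out, with 3 without replicate 3 of 9 weeks. The letters of the cyclic AMP response element, TGACGTCA, which the factor CREB is known to bind, were found on either strand in 3 of 20 promoters of the list, in 0 of the 8 called genes and in 2.03% of all genes.

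Glucocorticoid-responsive genes went both ways, with 3 of 24 called higher and 4 lower. Mt1 and Mt2, the metallothioneins that bind zinc, fell by 0.60 and 0.77. Zbtb16, a repressor that glucocorticoids raise, stood at 7.66, 9.79 and 3.19 CPM and then at 14.2, 11.0, 15.4 and 17.6 CPM. Lcn2, the acute phase protein lipocalin 2 on chromosome 2 from 32384633 to 32388252, showed the largest decrease among the named genes. It stood at 14.2, 22.6 and 1.78 CPM at 9 weeks and at 0.166, 0.756, 0.457 and 0.152 CPM at 25 weeks, so that 2 of the 3 early mice carried most of the difference, a log2 fold change of −5.11 with an SE of 0.79 and an adjusted p of 0.00219. Lrg1, an acute phase glycoprotein, followed it with 1.94, 2.42 and 1.21 CPM and then 0.370, 0.704, 0.594 and 0.507 CPM.

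Among the largest increases, Ostn, which codes for the secreted peptide osteocrin, was 4.02-fold higher, with 0.443, 0.664 and 0.388 CPM at 9 weeks and 2.16, 2.22, 1.62 and 2.03 CPM at 25 weeks (adjusted p = 0.000552). Abca8a, a lipid transporter on chromosome 11 from 110025634 to 110095978, stood at 4.10, 4.20 and 4.25 CPM and then at 14.2, 11.5, 14.1 and 11.7 CPM, a log2 fold change of 1.63 with an SE of 0.10 and an adjusted p of 6.28e-05. Tcap, a titin-binding protein, Mslnl, a mesothelin-like gene, and Bdkrb2, the bradykinin B2 receptor, were 2.82-fold, 2.60-fold and 2.51-fold higher. Ptk2b, Kctd16 and the glycine receptor subunit gene Glra1 were highest in replicate 1 of 25 weeks, the library that stood apart. Kctd16 lost the call without any 1 of the 3 mice of 9 weeks, and Glra1 without any 1 of these or replicate 3 of 25 weeks. Ptk2b, a calcium-dependent tyrosine kinase, stood at 26.4 CPM there and at 14.4 to 15.04 CPM in the other late mice, against 3.63, 10.2 and 5.91 CPM at 9 weeks.

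Among the largest decreases beside Lcn2, Lrg1 and Ntf3, Eps8l1, a regulator of actin, stood at 17.8, 18.2 and 16.97 CPM at 9 weeks and at 1.02, 0.938, 0.686 and 9.55 CPM at 25 weeks, so that replicate 4 of 25 weeks lay apart from the other late mice. It lost the call when any of the 3 mice of 9 weeks or replicate 2 or 3 of 25 weeks was left out. Dsc2, the desmosomal cadherin desmocollin 2, was 2.80-fold and Wif1, a secreted inhibitor of Wnt ligands, 2.79-fold higher at 9 weeks. Wif1 stood at 4.67, 4.15 and 8.03 CPM and then at 2.07, 1.85, 1.87 and 2.26 CPM. Mkrn3, a maternally imprinted ubiquitin ligase, was 2.18-fold and Pdlim3, a protein of muscle and actin bundles, 2.05-fold higher at 9 weeks. Cyp2f2, a cytochrome P450, was called at adjusted p = 0.0439 and lost the call when any of 5 of the 7 mice was left out.

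Several lists showed no call or few. In 70 genes of the nuclear respiratory chain 0 were called, although 67 had a negative log2 fold change and 37 passed the adjusted p alone, with a median of −0.15. The 58 cytosolic ribosomal proteins (median −0.053), 30 heat shock and unfolded protein genes (0.12; 2 calls without replicate 1 of 25 weeks), 14 genes of perineuronal nets (0.033) and 11 of brainstem, midbrain and cerebellar nuclei (0.12) held 0 calls each. Of 13 genes encoded in the mitochondrion 7 could be tested, and the other 6 are listed at 0 or 1 count in every library. The called one was mt-Nd6, the complex I subunit on the strand opposite to the other protein genes, with 16.6 ± 0.205 CPM (SD, n = 3) and 31.0 ± 3.75 CPM (SD, n = 4). Whether the counting used strand is not given in the sources used here, so that antisense reads cannot be told apart from it. Of 16 genes of the imprinted growth network 3 were called higher, Grb10, which restrains insulin receptor signalling, Peg3 and Zim1. Peg3 lost the call in 3 and Zim1 in 4 of the 7 leave-outs. Of 18 genes of the insulin-like growth factor axis Peg3, held by both lists, was higher and Igfbp7, a binding protein of vessels, lower. Cdkn2a, a marker of senescent cells, had 0 to 8 reads and could not be tested.

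Clustered protocadherins, the adhesion proteins by which a neuron recognises its own branches, were looked at as a family after their values were seen. Of 55 tested, 10 were called higher and 2 lower at 25 weeks. Pcdhga9 stood at 5.98 CPM on average at 9 weeks and at 12.03 CPM at 25 weeks, and Pcdhgb6 at 22.8 and 39.1 CPM. In the Pcdha and Pcdhg genes, variable exons are spliced to shared constant exons, so reads of the shared part cannot be assigned to 1 of them. The 2 called lower, Pcdhb7 and Pcdhb22, are Pcdhb genes. Pcdhb2, also a Pcdhb gene, was called higher, with a log2 fold change of 0.73 (adjusted p = 0.031).

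Values of other mice from the same experiments were set beside these. The early experiment also holds 3 WT mice of 9 weeks treated with AAV-shA4, an AAV that carries an shRNA against the CAG repeat, and the late one 5 SCA7 140Q/5Q knock-in mice treated with AAV-shA4 and 5 with a scrambled shRNA (AAV-shSCR). Levels in this comparison are CPM normalised over all 20 libraries. For 153 of the 480 genes called higher and 82 of the 284 called lower, the mean of the AAV-shA4-treated WT mice of 9 weeks lay nearer to that of the untreated WT mice of 25 weeks than to that of their own time point. The genes were chosen by the difference between the untreated groups, so these counts are a description with no test.

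Some genes followed the time point in every group. In AAV-shA4-treated WT mice of 9 weeks Cldn11 stood at 167.3 to 175 CPM, like the 177 to 180 CPM of the untreated mice, and at 71.4 to 87.6 CPM in the 10 SCA7 mice of 25 weeks. Abca8a stood at 4.85 to 5.51 CPM in those WT mice and at 13.04 to 16.3 CPM in the SCA7 mice, and Col3a1 at 13.2 to 15.8 CPM and at 5.52 to 9.29 CPM. Ifit2 also kept apart by time point, with 5.95 to 6.60 CPM in the treated WT mice and 8.95 to 13.3 CPM in SCA7 mice. In these 4 genes the mice of the late experiment lay beyond all 6 early mice, whatever their genotype and virus.

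For other genes the AAV-shA4-treated WT mice of 9 weeks lay outside the range of the untreated mice of their time point, on the side of the 25-week mice. For Per2 the AAV-shA4-treated WT mice of 9 weeks gave 49.6, 51.3 and 56.5 CPM, against 25.2 to 31.4 CPM in the untreated mice of the same time point and 56.8 to 70.6 CPM in untreated mice of 25 weeks. Cfap54 was at 2.74 to 3.51 CPM in these treated mice against 0.914 to 1.20 CPM, mt-Nd6 at 25.6 to 29.9 CPM against 16.65 to 17.05 CPM, and Lcn2 at 0.263 to 0.652 CPM against 1.81 to 22.9 CPM. Npas2, Hlf and Eomes followed this pattern, although the SCA7 mice overlapped with the untreated 9-week mice in Eomes, at 9.05 to 19.8 CPM against 16.3 to 20.8 CPM. The cilia list summed to 139 to 150 CPM in the treated mice, above the 105 to 116 CPM of the untreated mice of 9 weeks. The difference between these 2 groups of 9 weeks was not tested here. The study tested it with DESeq2, reported few genes past its limits and described the effect of AAV-shA4 in WT mice as modest. Treatment and the state of the mice at dissection cannot be told apart.

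In a few genes the untreated mice of 25 weeks lay apart from all other libraries. Ostn stood at 1.65 to 2.26 CPM in them and at 0.907 CPM or less in every other library of the series. Dnah11 stood at 32.7 to 34.1 CPM in them and at 28.7 CPM or less elsewhere. Ntf3 stood at 3.69 to 5.01 CPM, below the 6.33 to 11.2 CPM of the other groups. These genes were picked for this pattern from the named genes, as a description without a test.

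The AAV-shA4-treated SCA7 mice of 25 weeks were also fitted against the AAV-shA4-treated WT mice of 9 weeks. No library is in both comparisons, but the same experiments are, and genotype differs as well. In these mice 447 genes were called higher (3.02% of 14797) and 508 lower (3.43%). Of 477 genes called higher in untreated WT mice and tested in both, 404 (84.7%) had a positive log2 fold change in the other mice, against 50.5% of all genes, and 35.2% were called higher, while 11 were called lower. Of 282 called lower, 245 (86.9%) were negative, 89 (31.6%) were called lower and 1 was called higher. The 257 shared calls are 26.9% of the calls in the other mice. Cldn11 had a log2 fold change of −1.04 there, Abca8a of 1.51 and Col3a1 of −0.84, while Cfap54 had 0.14, Per2 0.32 and Col4a1 −0.083, none of these 3 called. Eomes and Th were called in the opposite direction, at −1.29 and −1.21. Of 24 immediate early genes tested in the other mice 0 were called higher and 3 lower, with a median of −0.21.

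**Figure D4:**
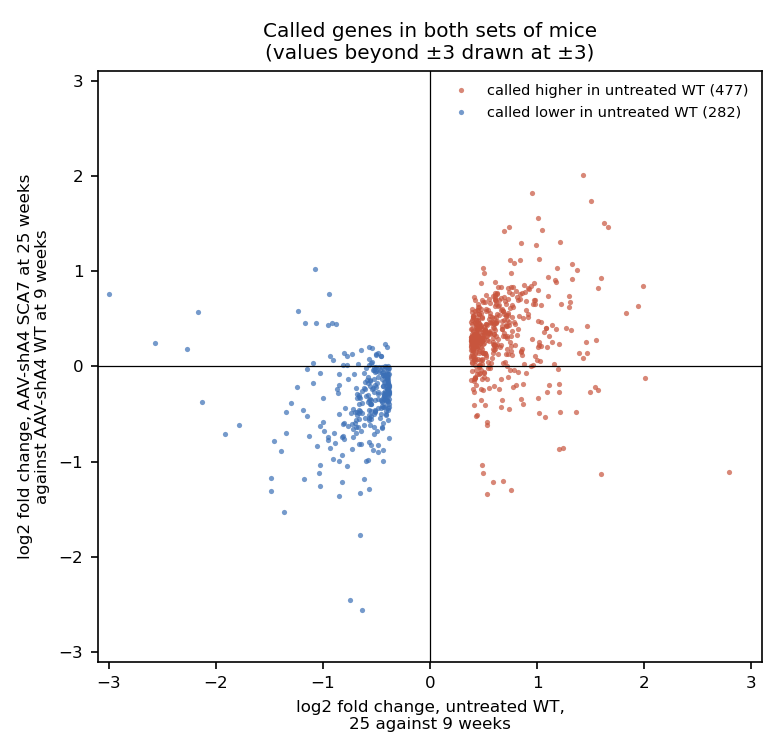
The log2 fold change of each gene called in untreated WT mice (25 against 9 weeks, horizontal axis) and of the same gene in AAV-shA4-treated SCA7 mice of 25 weeks against AAV-shA4-treated WT mice of 9 weeks (vertical axis). Of the 477 genes called higher (red) 404 lie above 0 and of the 282 called lower (blue) 245 lie below 0.

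The calls were unevenly spread over the base composition and length of genes. Across genes, the log2 fold change had a Spearman correlation of −0.29 with the GC content of the transcripts and of 0.21 with their length. In the 20% of genes with the lowest GC content (33.2% to 45.3%) 138 were called higher and 19 lower, and in the 20% with the highest (56.4% to 75.6%) 54 were called higher and 115 lower. Each 9-week library leaned to GC-rich genes, with correlations of a gene's deviation from its mean with GC of 0.14 to 0.29, and each 25-week library to GC-poor genes, with −0.26 to −0.13. After centring by GC and length in each library 625 genes were called, 552 of them among the 764. The lists then held 1 higher and 8 lower calls in myelin, 7 lower in collagens and matrix, 7 lower in cholesterol synthesis and 6 higher in interferon genes. Mvd lost its call under this centring, so the 7 of cholesterol synthesis are not all those named above. The part of library composition in single genes was not tested otherwise.

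**Figure D5:**
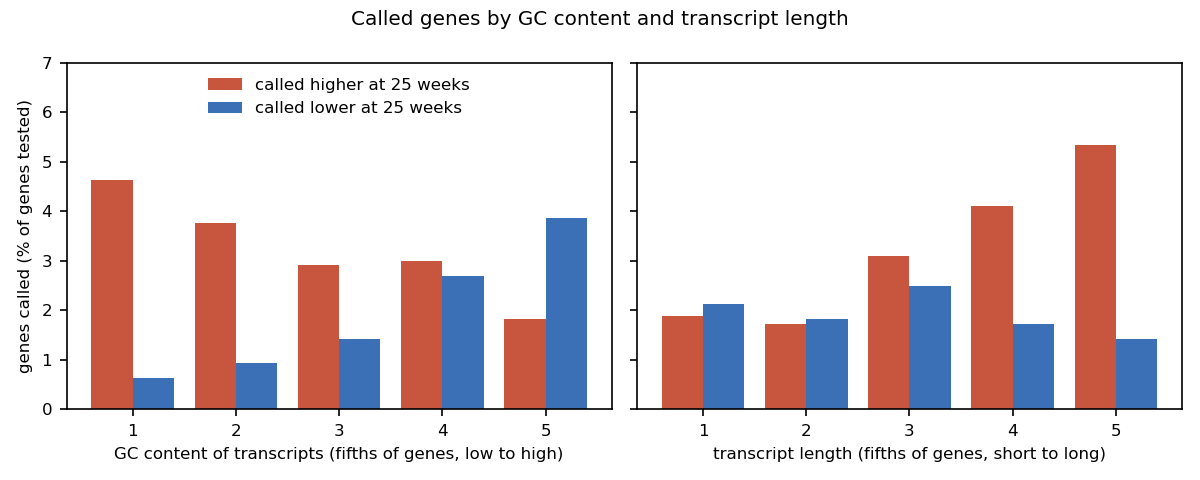
The share of tested genes called higher (red) and lower (blue) at 25 weeks, in percent, in bins of 20% of genes by GC content (left) and by transcript length (right). The share called higher falls from 4.64% to 1.82% from the lowest to the highest GC content, while the share called lower grows from 0.638% to 3.87%.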

How the data were processed

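Cerebellar RNA of 20 mice was sequenced by the authors as stranded single reads, and the 7 untreated WT libraries were analysed here. The deposited table holds counts, whole numbers of reads per gene that the authors did not normalise. The submitters' processing notes name bcl2fastq 2.20.0.422, cutadapt 1.10, Bowtie2 2.2.8, STAR 2.5.3a, HTSeq 0.6.1p1 and build mm10. Genes were annotated with GENCODE M21 (GRCm38), and 260 of 55401 genes without an entry, with under 0.0024% of counts, were left out.

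Groups were taken from the labels. Protein-coding genes were tested with edgeR 4.0.16 under R 4.3.3 (TMM, filterByExpr with minimum count 10 and total 15, quasi-likelihood test, Benjamini-Hochberg adjustment), with DESeq2 1.42.0 and limma 3.58.1 as alternatives. The study's own limits for its tables, adjusted p under 0.05 and fold change above 1.3, were used. No batch term can be fitted, since time point and experiment coincide. Motifs were searched in RefSeq promoters. The methods were tested on simulated data.

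Named genes are the 10 called genes with the largest change in each direction (mean of at least 1 CPM, groups without overlap), up to 4 called members with the smallest adjusted p in each of 35 lists, and 10 further genes; other list members are named as examples after their values were seen. Members and lists were chosen with earlier results of these data known. Of the listed genes, 72 could not be tested, and some called members are counted but not reported here by name. Whether any of the 7 mice were littermates is not given in the sources used here, and p-values measure the spread between these mice. Pairs of mice of a group differed beyond counting noise (chi-squared per degree of freedom 6.80 to 18.8 in 9 pairs). With 39036803 to 54570503 reads per library, genes near 1 CPM rest on few reads. The common coefficient of variation between mice in the fit was 0.078, and counting error is not small beside it for such genes.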

Additional observations from a re-analysis of the deposited data

Results flagged for a closer look

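In 8 of 126 values tested, 1 of the 4 mice of 25 weeks lay farther from the others than Dixon's 95% limit for 4 samples allows, and chance flags about 1 in 20. Replicate 1 lay apart in Ptk2b (26.4 CPM against 14.4 to 15.04 CPM), Kctd16 (3.09 CPM against 1.28 to 1.36 CPM) and Trim30a (2.79 CPM against 3.60 to 3.65 CPM), and it is the library that stood apart in the second principal component. Replicate 2 lay apart in Mkrn3 (4.01 CPM against 2.57 to 2.81 CPM) and Gpr17 (16.6 CPM against 21.5 to 22.05 CPM). Replicate 3 had 26.8 CPM of Col1a1 against 16.3 to 16.7 CPM. Replicate 4 had 9.55 CPM of Eps8l1 against 0.686 to 1.02 CPM and 69.3 CPM of Per2 against 55.8 to 58.1 CPM. The group of 3 mice of 9 weeks was not tested in this way.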

How the results depend on the processing

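The count of 764 called genes lay between 625 and 977 with other scaling (765 and 751), other filters (740 without a filter and 677 at a mean of at least 1 CPM), all annotated genes (977), DESeq2 (774), limma-voom (755), robust estimation (752), all 20 libraries (796) and centring by GC, length or both (638, 712 and 625). The centring by GC alone and by length alone was chosen after seeing the data. GC centring alone moved the share of higher calls from 62.8% to 68.2%. Leaving out 1 mouse gave 573 to 804 calls, 349 to 484 of them higher and 224 to 330 lower, with 573 without replicate 3 of 25 weeks. Other limits moved the count: 3419 genes by the adjusted p alone (1762 higher, 1657 lower), 358 at a fold change above 1.5 (236 and 122), and 64 by edgeR's glmTreat against 1.3-fold (38 and 26). No called gene changed its sign under any of these settings.

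The replicate numbers do not pair the mice: same-numbered mice of the time points had correlations of −0.154, −0.118 and 0.030 of their deviations. A fit with the replicate number as a block called 525 genes (332 higher, 193 lower), 485 of them among the 764. In the cell cycle list 0 genes and in the PC list 0 genes were called with the block. In the other mice the block gave 574 of 955 calls (237 higher, 337 lower), AAV-shSCR in place of AAV-shA4 in the SCA7 mice 1297, and leaving out 1 mouse 726 to 965, with 284 to 459 higher and 405 to 538 lower. The 284 came without replicate 1 of the AAV-shA4-treated WT mice.

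Of 85 named called genes 20 kept the call under every setting, and of 1781 pairs of gene and setting 213 lost it and 0 reversed. Single mice also decided the calls of Mki67, Plk1, Tyms, Gap43, Tspan2, Ifih1 and Ifit3b, each lost in 1 to 3 of the 7 leave-outs. Calb1 and Apoe, both uncalled, changed sign. Calb1 went to −0.0677 with GC and length centring, −0.0898 with GC centring, −0.0437 without replicate 2 of 9 weeks and −0.0244 without replicate 2 of 25 weeks, and leaving out 1 mouse gave −0.0437 to 0.0558. Apoe went to 0.0997, 0.0730 and 0.0221 with centring by both, by GC and by length, 0.0380 without replicate 3 of 9 weeks and 0.0063 without replicate 2 of 25 weeks, and leaving out 1 mouse gave −0.0486 to 0.0380. Their adjusted p stayed above 0.2 in each, and the cause was not tested.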
